A study of Mus musculus with 4 samples.

Results

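Inhibitory neurons that carried no transcript of *Sp8* or *Prokr2* were examined in the telencephalon of mice at postnatal day 5. They numbered 564 of 17623 cells kept, and 27742 barcodes had been deposited. Kept cells had 2000 to 40000 unique molecular identifiers (UMIs, tags that mark captured transcript molecules), at least 1000 genes and at most 10% mitochondrial UMIs. A cell was counted here when it had at least 3 UMIs over *Dlx1*, *Dlx2*, *Dlx5* and *Gad2*, none for *Sp8* and *Prokr2*, none for the division genes *Mki67* and *Top2a*, none for the oligodendrocyte precursor gene *Pdgfra*, none for the excitatory genes *Neurod2* and *Neurod6*, and at most 1 over the astrocyte genes *Aqp4* and *Gja1*. These genes chose the cells, so their levels are a description and are not tested.

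The cells came from a single-cell RNA-seq experiment on tdTomato-positive cells sorted by flow cytometry, with 2 control and 2 mutant libraries. Control mice were NestinCreERT2/tdTomato/Chd8+/+ and mutant mice carried 1 floxed *Chd8* allele in place of a wild-type one, all on the C57BL/6 background. Both genotypes carried the Nestin-driven, tamoxifen-inducible Cre and the tdTomato reporter, and both received tamoxifen at embryonic day 14.5. The sort thus aimed at cells that descend from progenitors labelled at that stage. The study also found microglia, pericytes and endothelial cells among the sorted cells. Each library pooled 3 mice. The library is therefore the replicate, p-values measure only the spread between libraries, and the spread between mice cannot be seen. The study asked how loss of 1 *Chd8* allele in midfetal progenitors alters the neurons and glia made from them.

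The GABAergic neurons of the forebrain arise in the ganglionic eminences under the control of Dlx transcription factors. The lateral eminence makes the projection neurons of the striatum, which leave division before birth, and later the neuroblasts that migrate through the rostral stream to the olfactory bulb. The medial and caudal eminences (MGE and CGE) make most cortical interneurons. *Sp8* is a zinc finger transcription factor of olfactory bulb and caudal interneurons, and *Prokr2* is the prokineticin receptor that olfactory bulb neuroblasts use in migration.

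Library values below follow the order control replicate 1, control replicate 2, mutant replicate 1 and mutant replicate 2. The matrices held 79328841, 46274374, 78211984 and 50616343 UMIs, and the cells lacking *Sp8* and *Prokr2* supplied 1892225, 332114, 1419479 and 203779 of them from 280, 53, 201 and 30 cells. Their median depth was 5956, 5501, 6296 and 6136 UMIs per cell. The libraries of replicate 2 stood apart from those of replicate 1. Their file headers name Cell Ranger 5.0.1 where the others name 7.0.0, and the median mitochondrial share of the cells was 5.14% and 4.05% against 1.99% and 2.35%. In these cells *Xist*, made by the inactive X chromosome, was counted at 2156 and 2277 CPM (UMIs of a gene per 1000000 UMIs of the cell set in a library) in replicate 2 and at 0 and 1.41 CPM in replicate 1, whereas the Y-linked *Uty* was at 0 in both libraries of replicate 2 and at 129 and 99.3 CPM in replicate 1. The study states that male mice were used for sequencing, which the levels in replicate 2 go against. Levels also parted by the length of the gene: among 302 genes at 50 CPM or more that span at least 300 kb, the median log2 difference of replicate 2 from replicate 1 was -2.31 in controls and -2.54 in mutants, against 0.39 and 0.41 for the 1399 genes that span under 20 kb. By default the later software counts reads in introns and the earlier does not. The setting used is not given in the sources used here and its part was not tested, but CPM of long genes should be compared only within a replicate. Each genotype had 1 library of each kind, so differences between genotypes are also given within each replicate. Across the 4 matrices 79 barcodes were shared, and 0 of them belonged to these cells.

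The label of an inhibitory neuron was checked against *Sp9* and *Tubb3*, which the selection did not use. *Sp9*, a transcription factor of the ganglionic eminences, was found in 70.6% of the cells, against 4.02% of oligodendrocyte precursors and 3.50% of astrocytes. *Tubb3*, a neuronal tubulin, was found in 92.0%, against 32.1% of precursors and 17.4% of astrocytes. Both glial sets were deeper, with median depths of 6761 to 10182 UMIs in precursors and 12917 to 14433 in astrocytes. The *Sp9* level was even across libraries, at 351, 373, 387 and 388 CPM. For the selecting genes, *Gad2* was found in 90.8% and *Dlx5* in 62.6% of the cells. The cells at the limit of the rule were shallower: the 70 cells with exactly 3 UMIs over the Dlx genes and *Gad2* had a median of 3264.5 UMIs and 151 CPM of *Sp9*, and the 66 cells with 2, just outside, had 3110.5 UMIs and 133 CPM, against 369 CPM over all 564 cells. Of the cholinergic markers, *Chat* and *Slc18a3* were at 0 in all 4 libraries.

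*Rarb* is shown first by sequence, because in both libraries of replicate 1 it supplied the most UMIs of the striatal genes used below to count cells (63.5% and 45.8%; in replicate 2 it was 13 of 45 and 3 of 11) and it is regulated through a known element. *Rarb* (ENSMUSG00000017491) encodes a retinoic acid receptor used by developing striatal neurons and is itself a classical target of retinoic acid. The gene lies on the minus strand of mm10 at chr14:16430839-16819156. The 250 bases before a RefSeq transcript start inside the gene (GRCm38.p6, chr14:16575477-16575726, minus strand) are given with a match in capitals to GTTCAC, any 5 bases and GTTCAC again, a direct repeat of the kind retinoic acid receptors bind.

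Rarb: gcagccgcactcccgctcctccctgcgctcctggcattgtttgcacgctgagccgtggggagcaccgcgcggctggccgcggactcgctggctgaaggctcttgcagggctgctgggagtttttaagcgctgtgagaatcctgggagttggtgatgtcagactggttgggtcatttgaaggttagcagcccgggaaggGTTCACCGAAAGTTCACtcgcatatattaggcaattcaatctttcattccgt

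The match starts 52 bases before the transcript start. Searched on both strands in windows of 300 bases (250 before the start to 50 after), these letters were found in 2 of 32851 RefSeq promoters, or 0.00609%. They were found at 1 of the 8 striatal genes with a promoter entry among those tested below and at 0 of the 7 olfactory bulb genes with one. The letters searched are the half-sites of the known *Rarb* element, so the match at *Rarb*, the 1 striatal gene, was fixed by their choice. These counts are therefore a description and not a test of the lists. A match of letters describes the window and is not evidence of binding.

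How common cells lacking *Sp8* and *Prokr2* were differed more between replicates than between genotypes. They made up 4.90% (exact Clopper-Pearson 95% interval 4.36 to 5.50), 1.78% (1.34 to 2.33), 3.55% (3.08 to 4.07) and 0.914% (0.618 to 1.30) of the cells kept. The 2 libraries of replicate 1 were highest, and the genotypes overlapped. The mean was 3.34% ± 2.21 (SD, n = 2) in controls and 2.23% ± 1.87 (SD, n = 2) in mutants, a difference of -1.11 percentage points (-1.35 within replicate 1 and -0.868 within replicate 2; exact two-sided permutation test, p = 0.667). Without control replicate 1 the difference was 0.450 points and without mutant replicate 2 it was 0.209. Leaving out a library also leaves the replicates unequal between genotypes, so these 2 values mix genotype with replicate. Within each replicate the mutant library was the lower. These intervals cover counting error only.

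Among post-mitotic inhibitory cells alone, the share lacking *Sp8* and *Prokr2* was lower in both mutant libraries. The comparison set, called neuroblasts below, met the same rule but held at least 1 UMI of *Sp8* or *Prokr2* (1769 cells). The share was 27.4% (24.7 to 30.2) in control replicate 1 and 24.5% (19.0 to 30.8) in control replicate 2. It was 21.8% (19.2 to 24.7) in mutant replicate 1 and 17.1% (11.9 to 23.6) in mutant replicate 2. The genotypes did not overlap, at 25.97% ± 2.02 and 19.5% ± 3.33 (SD, n = 2 each), a difference of -6.47 percentage points with -5.55 within replicate 1 and -7.39 within replicate 2. The exact two-sided permutation test gave p = 0.3333, the smallest that 2 libraries against 2 allow, so the design could not reach a threshold of 0.05. A count of 0 depends on depth, so cells were also thinned to 4000 UMIs, and the difference was then -5.90 points. Here and below, thinning left out cells with fewer than 4000 UMIs, so 1951 of the 2333 inhibitory cells were used.

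**Figure D1:**
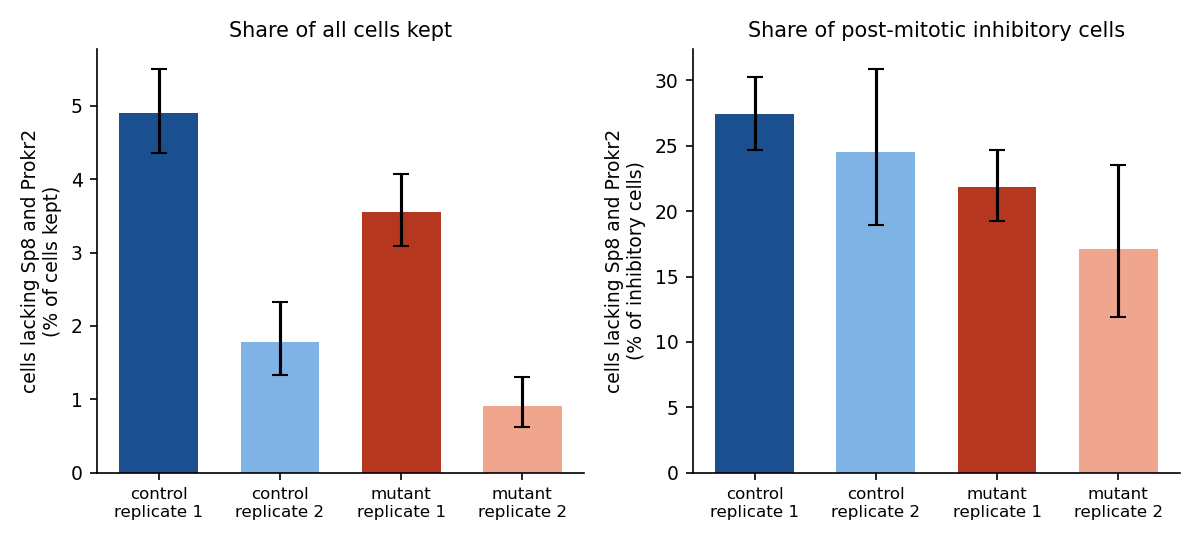
Cells lacking *Sp8* and *Prokr2* in each library, as a percentage of all cells kept (left) and of post-mitotic inhibitory cells (right), with exact 95% intervals for counting error as error bars. On the left the libraries of replicate 1 are the highest (4.90% and 3.55%), and on the right both control libraries (27.4% and 24.5%) stand above both mutant libraries (21.8% and 17.1%).

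The cells lacking *Sp8* and *Prokr2* were then compared with the neuroblasts of the same libraries. Both sets were divided by *Sp8* and *Prokr2*, so a gene that varies with either would differ through the selection. Transcription factors and receptors of striatal projection neurons were higher in the cells lacking *Sp8* and *Prokr2*, genes of olfactory bulb interneurons were lower, and part of the synaptic genes was higher. Of 9434 genes tested outside the selecting genes, 1782 (18.9%) passed an adjusted p of 0.05, with 1028 (10.9%) higher and 754 (7.99%) lower. The test was edgeR's quasi-likelihood test on UMIs summed per library and set, with the library as a block and Benjamini-Hochberg adjustment over all genes. The median log2 difference of all genes tested was -0.0023.

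Of the 21 genes of the striatal projection neuron list, 9 were abundant enough to be tested, and of these 8 were higher, 0 were lower and *Pde10a* did not pass, with a median log2 difference of 2.17. Genes near 0 in neuroblasts, such as *Six3*, *Rarb*, *Isl1*, *Zfp503* and *Drd2*, could pass the abundance filter through the other set alone, so this count is a description. Without the filter 12 of 21 were higher, these 5 among them, and 0 lower, with a median of 1.22. *Six3* (ENSMUSG00000038805, chr17:85613608-85629302 in mm10) encodes a homeodomain factor needed for striatal neurons of the indirect pathway. It was at 64.5, 346, 141 and 290 CPM in the cells lacking *Sp8* and *Prokr2* and at 4.96, 3.40, 1.34 and 2.32 CPM in neuroblasts. Every library was higher in the former, and the sets did not overlap. The log2 difference was 4.96 (SE 0.267, edgeR adjusted p = 2.03e-12). Its neighbouring long noncoding transcript *Six3os1* differed by 4.77 (SE 0.303).

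The retinoic acid receptor gene *Rarb*, whose promoter is printed above, was at 181, 39.1, 166 and 14.7 CPM against 9.37, 1.13, 7.87 and 5.80 CPM in neuroblasts. All 4 libraries were higher, but mutant replicate 2 rested on 3 UMIs in 2 cells. The log2 difference was 4.05 (SE 0.177, edgeR adjusted p = 4.19e-14), and without the library block the adjusted p was 0.0737.

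*Isl1* (ENSMUSG00000042258, chr13:116298281-116309689) encodes a LIM homeodomain factor of striatal neurons of the direct pathway and of cholinergic neurons. It was at 44.4, 63.2, 11.98 and 9.81 CPM against 1.47, 2.27, 0.192 and 0 CPM, a log2 difference of 3.98 (SE 0.284, edgeR adjusted p = 2.25e-10). The sets did not overlap, and the UMIs numbered 84, 21, 17 and 2. *Zfp503*, a zinc finger gene of the developing striatum, stood at 19.0, 48.2, 32.4 and 29.4 CPM with no neuroblast library above 2.32 CPM (log2 difference 3.86, SE 0.290).

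The remaining striatal genes were also present in neuroblasts. *Foxp1* encodes a forkhead repressor of striatal projection neurons. It was at 538, 229, 556 and 442 CPM against 143, 62.3, 166 and 131 CPM (log2 difference 1.77, SE 0.0804), with 61 of its 90 UMIs in mutant replicate 2 from 1 cell. *Foxp2*, another forkhead gene of the striatum, was at 730, 250, 728 and 260 CPM against 237, 88.3, 156 and 116 CPM (1.74, SE 0.109). *Bcl11b*, which encodes the zinc finger factor CTIP2 found throughout projection neurons of the striatum, was at 428, 464, 435 and 677 CPM against 151, 193, 140 and 276 CPM (1.42, SE 0.0801). The lowest library lacking *Sp8* and *Prokr2* stood above the highest neuroblast library for *Foxp1*, *Foxp2* and *Bcl11b* alike.

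Genes of mature striatal neurons were rare. The dopamine receptor gene *Drd2*, a marker of the indirect pathway, was at 12.2, 9.03, 11.3 and 24.5 CPM against 1.65, 1.13, 1.92 and 4.64 CPM (log2 difference 2.17, SE 0.299, edgeR adjusted p = 8.24e-06). *Drd1*, the dopamine receptor gene of the direct pathway, did not exceed 3.70 CPM in any library and was not tested. The peptide genes *Penk* and *Tac1* and the phosphoprotein gene *Ppp1r1b* were likewise too low to test, with at most 12.04, 6.87 and 0.704 CPM. *Ebf1*, a direct pathway factor, was at 141 CPM in mutant replicate 1 and at most 11.6 CPM elsewhere, and 170 of its 200 UMIs in that library came from 1 cell.

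The olfactory bulb list moved the other way. Of its 11 genes 9 were tested, 8 were lower, 0 were higher and *Vax1* did not pass, with a median log2 difference of -0.92. *Etv1* (ENSMUSG00000004151, chr12:38779380-38870484), an ETS factor of olfactory bulb interneurons, was at 140, 72.3, 170 and 152 CPM against 470, 433, 477 and 525 CPM. No library of one set reached the other, and the log2 difference was -1.78 (SE 0.104, edgeR adjusted p = 9.26e-12). *Pax6*, needed for dopaminergic periglomerular cells, was at 45.4, 27.1, 50.7 and 34.3 CPM against 91.8, 170, 110 and 117 CPM (-1.31, SE 0.150). *Calb2*, which encodes calretinin, differed by -1.34 (SE 0.124), *Synpr*, a synaptic vesicle gene, by -1.26 (SE 0.107) and the zinc finger gene *Zic1* by -0.82 (SE 0.127). *Meis2*, a homeobox gene shared by striatal and olfactory bulb neurons, stayed abundant in both sets, at 1873 to 3177 CPM against 2669 to 3919 CPM, and was lower by 0.50 on the log2 scale (log2 difference -0.50, SE 0.0719).

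**Figure D2:**
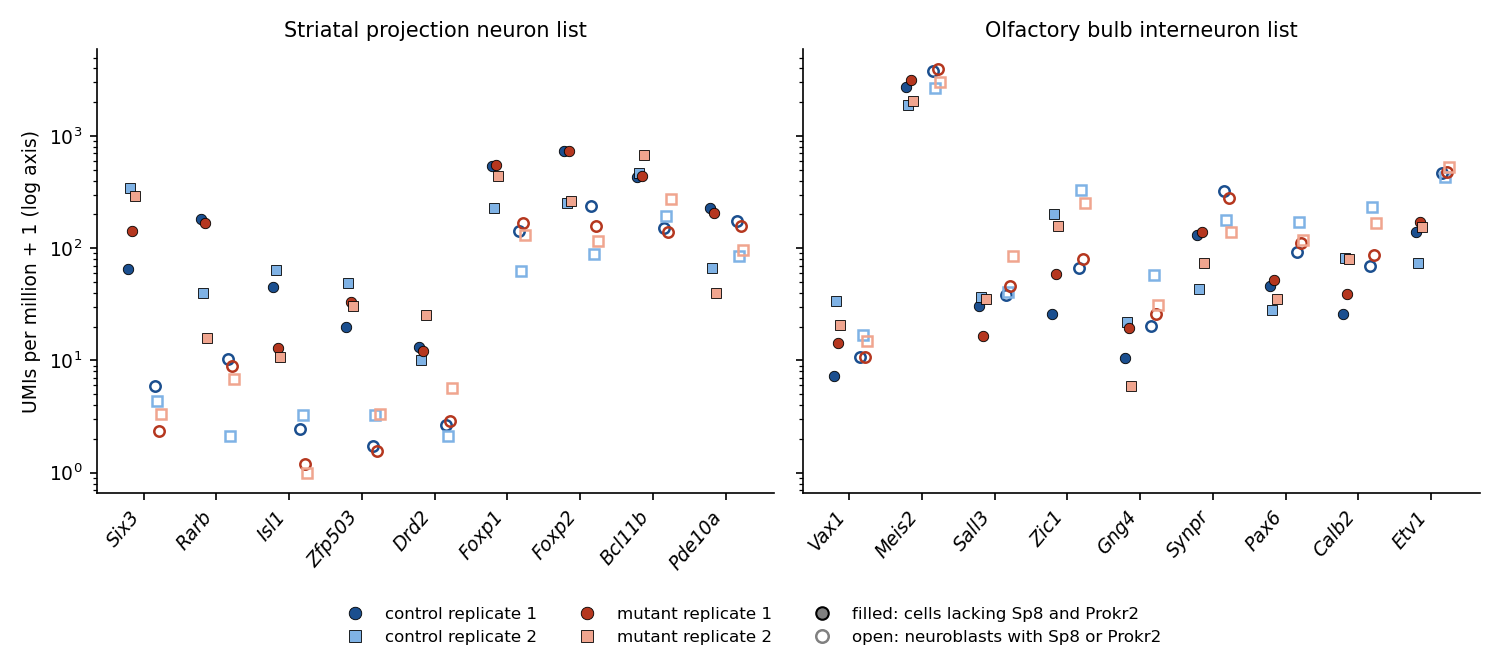
Genes of the striatal projection neuron list (left) and the olfactory bulb interneuron list (right) that were tested, in CPM plus 1 on a log axis, with a point per library, filled for the cells lacking *Sp8* and *Prokr2* and open for neuroblasts, with controls in blue, mutants in red, circles for replicate 1 and squares for replicate 2. Filled points stand above open ones of the same library for 8 of the 9 striatal genes and below them for 8 of the 9 olfactory bulb genes.

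Most genes of general GABAergic identity were present at lower levels. Of the 8 genes of the GABA identity list 5 were lower, 0 were higher, and the median log2 difference was -0.41. The lower genes included *Dlx6os1*, a noncoding transcript of the *Dlx5* and *Dlx6* locus (-0.81, SE 0.0752), the homeobox gene *Dlx6* (-0.50, SE 0.133), *Sp9* (-0.47, SE 0.0751) and *Gad1*, a GABA-synthesizing enzyme (-0.35, SE 0.0862, lower in 3 of 4 libraries). The vesicular GABA transporter gene *Slc32a1* was at 55.0, 135, 64.8 and 88.3 CPM against 56.9, 91.7, 58.4 and 118 CPM, and its log2 difference of 0.04 (SE 0.127) did not pass.

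Genes of young neurons were lower for the most part. Of 14 genes of the immature neuron list 8 were lower and 1 was higher, with a median log2 difference of -0.28. *Dcx*, a microtubule protein of migrating neurons, was at 809, 1171, 924 and 1109 CPM against 1299, 1654, 1270 and 1724 CPM (-0.61, SE 0.0709). *Stmn2*, a microtubule regulator of growing axons, differed by -0.76 (SE 0.0703). The exception was *Gap43*, a growth cone protein, at 318, 385, 340 and 240 CPM against 175, 203, 181 and 181 CPM (0.80, SE 0.0830).

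Of 17 synaptic genes 15 were tested, 6 were higher and 1 was lower, with a median log2 difference of 0.42. *Syt1*, the calcium sensor of vesicle release, was at 590, 214, 539 and 137 CPM against 125, 46.4, 109 and 44.1 CPM. Each library was higher in the cells lacking *Sp8* and *Prokr2* (log2 difference 2.18, SE 0.0892, edgeR adjusted p = 1.38e-14). *Syn2*, a synapsin, and *Gria1*, an AMPA receptor subunit, differed by 2.08 (SE 0.158) and 1.19 (SE 0.106), and the chloride transporter gene *Slc12a5* and the neuronal splicing gene *Rbfox3* were also higher. *Snap25* and *Vamp2*, both of the release machinery, did not pass (0.10, SE 0.0888 and -0.04, SE 0.116), and *Syn1* was lower.

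The Slit receptor genes *Robo1* and *Robo2* moved in opposite directions. *Robo1* (ENSMUSG00000022883, chr16:72308306-73046095) was at 1539, 87.3, 1274 and 58.9 CPM against 192, 22.6, 191 and 16.3 CPM (log2 difference 2.76, SE 0.106). *Robo2* was at 1075, 184, 968 and 240 CPM against 2328, 668, 2229 and 741 CPM (-1.35, SE 0.0939). Both are long genes with levels several times lower in replicate 2, and the directions held in each library. Of 14 genes of the migration and guidance list 12 were tested, 6 were higher and 3 lower, among the higher ones the netrin receptor gene *Unc5d* (2.40, SE 0.153, with 0 UMIs in mutant replicate 2) and the chemokine scavenger gene *Ackr3* (1.41, SE 0.222).

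Genes of cortical interneurons were mixed. Of the CGE list 6 of 12 genes were tested, 4 were higher and 1 lower. Of the MGE list 7 of 14 were tested, 2 were higher and 1 lower. Genes near 0 in neuroblasts, as *Reln* and *Npy* were, could pass the filter on low counts through the other set alone, so these counts are descriptions. *Reln*, a secreted glycoprotein of some cortical interneurons, was at 108, 81.3, 15.5 and 9.81 CPM against 1.10, 1.13, 3.07 and 1.16 CPM (log2 difference 4.21, SE 0.373), and *Npy*, which encodes neuropeptide Y, was at 98.8, 69.3, 53.5 and 0 CPM against 4.59, 13.6, 0.960 and 0 CPM (3.93, SE 0.281). Both came from few cells: 38 cells held a *Reln* UMI and 29 an *Npy* UMI, and 128 of the 187 *Npy* UMIs of control replicate 1 were in 1 cell. *Nr2f2*, the nuclear receptor COUP-TFII of the caudal eminence, was higher by 1.40 (SE 0.171), and *Htr3a*, a serotonin receptor of caudal interneurons, was lower (-1.21, SE 0.217).

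Some markers of other states moved with these genes. Of 7 progenitor genes tested 3 were higher, among them the Notch effector gene *Hes5*, by 2.46 (SE 0.290), and the growth factor receptor gene *Egfr*, by 1.35 (SE 0.205). Of 9 division genes tested outside the selecting genes 4 were higher and 0 lower. All 4 oligodendrocyte lineage genes tested were higher, and the summed level of that list of 7 was 115, 81.3, 302 and 304 CPM against 52.7, 75.9, 131 and 145 CPM. The astrocyte list had 2 of 6 higher, and its 8 genes summed to 589, 1066, 349 and 1104 CPM against 366, 995, 285 and 1212 CPM. The part of these markers in the other differences was not tested, apart from a fit below without cells holding oligodendrocyte markers. Progenitor, division and astrocyte genes were not used to leave out cells in that fit. In the blood list *Hbb-bs* was called higher (4.03, SE 0.633) at 3.70, 9.03, 306 and 4.91 CPM, so mutant replicate 1 alone carried it, while 0 of 5 dissociation response genes, 0 of 1 microglial and 0 of 1 vascular genes tested passed, and no gene of the excitatory, ependymal or cholinergic lists was abundant enough to test. Without cells holding at least 5 UMIs over the vascular, blood, microglial, oligodendrocyte and ependymal lists, 1595 genes passed in place of 1782, with 7 of 8 striatal genes higher and 8 of 9 olfactory bulb genes lower.

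Outside the lists, the 15 genes with the largest positive change that met the stated level included *Gabrg3*, a GABA receptor subunit (4.62, SE 0.171), *Chl1*, a cell adhesion molecule (3.31, SE 0.155), *Gucy1a1*, a subunit of the nitric oxide receptor guanylate cyclase (3.32, SE 0.310), and *Grm5*, the metabotropic glutamate receptor 5 (3.01, SE 0.129). Also among them were *Lypd1*, *Galntl6*, *Gpc6*, *Thsd7b*, *Zfp804a*, *Enc1* and *Zdbf2*, with log2 differences of 2.88 to 3.63. *Galntl6* was at 596, 6.02, 425 and 4.91 CPM, so that the libraries of replicate 2 held little of it. The 15 lower genes ranged from -1.96 for the membrane protein gene *Parm1* to -1.32 for the matrix gene *Edil3*. They included the actin bundling gene *Pls3* (-1.82, SE 0.125), the potassium channel gene *Kcnd3* (-1.74, SE 0.101), the transmembrane BMP and TGF-beta decoy receptor gene *Bambi* (-1.72, SE 0.229), the extracellular matrix gene *Spon1* (-1.71, SE 0.0928) and the phosphatase gene *Dusp4* (-1.38, SE 0.139), with *Brinp1*, *Fam171b*, *Adamtsl1*, *Brinp2* and *Fam78b*.

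The number of genes called depended on the libraries and the fit. It was 862 without control replicate 1, 846 without mutant replicate 1 and 404 in the libraries of replicate 2 alone. Without the library block it was 52, which left 5 striatal genes higher and 2 olfactory bulb genes lower. The GABA identity, immature neuron and synaptic lists then had 0 calls, with median log2 differences of -0.40, -0.27 and 0.30. Scaling by library totals without TMM moved the split to 1214 higher and 567 lower.

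Binning the inhibitory cells by their UMIs of *Sp8* and *Prokr2* showed where the difference lay. Pooled over libraries, *Six3* was at 129 CPM in the 564 cells with 0 UMIs and at 7.41 CPM in the 356 cells with 1, 3.65 in the 345 with 2, 2.31 in the 714 with 3 to 5 and 1.05 in the 354 with 6 or more. *Rarb* went from 154 to 6.95, 5.02, 11.9 and 3.50 CPM, and *Syt1* from 515 to 141, 116, 92.6 and 99.5 CPM. For these genes the pooled drop lay between cells with 0 and cells with 1 UMI. In mutant replicate 2 *Rarb* was at 14.7 CPM in cells with 0 and 41.5 CPM in the 25 cells with 1. *Etv1* was at 146, 358, 460, 482 and 559 CPM, with its largest step also between 0 and 1. *Sp9* was at 369, 505, 526, 500 and 475 CPM and *Tubb3* at 1729, 2214, 2203, 2112 and 1894 CPM. Median depth was 6046, 5785.5, 6116, 6768 and 7442.5 UMIs per cell in these bins. The bins use the selecting genes and are a description.

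**Figure D3:**
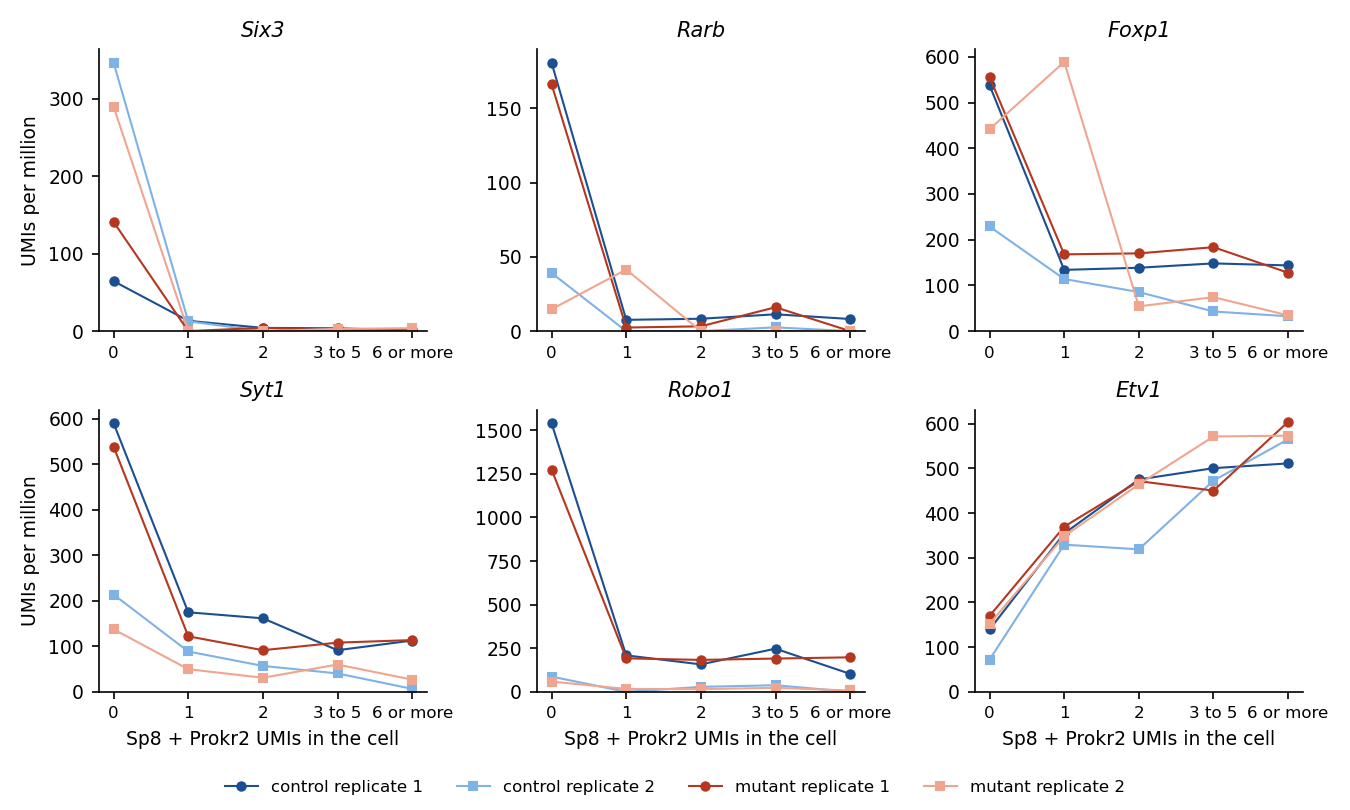
Levels of 6 genes in CPM by the number of *Sp8* plus *Prokr2* UMIs in the cell, 1 line per library. *Six3* is high at 0 UMIs in all 4 libraries and near 0 in all other bins, *Etv1* is lowest at 0 UMIs in each library, and the *Foxp1* peak of mutant replicate 2 at 1 UMI comes from 25 cells.

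Within the cells lacking *Sp8* and *Prokr2*, *Six3* was found with *Bcl11b* and *Rarb* and seldom with *Etv1*, but not all striatal genes went together. Of the 97 cells with a *Six3* UMI, 88.7% held *Bcl11b*, against 54.8% of the other cells. *Rarb* was found in 36.1% against 9.64%, and *Etv1* in 11.3% against 40.3%. The cells with *Six3* were deeper (median 8054 against 5658 UMIs), and depth favours detection. Of the 27 cells with an *Isl1* UMI, 66.7% held *Zfp503* against 6.52%, 63.0% held *Rarb* against 11.7%, 18.5% held *Sp9* against 73.2%, and 0 held *Drd2*. *Six3* was found in 18.5% of them and in 17.1% of the others. *Foxp2* was found in 38.8% of cells with *Foxp1* and 39.2% of those without, and *Etv1* in 34.4% and 36.1%. A *Six3* UMI was found in 17.2% of these cells, 1.07% of neuroblasts, 7.99% of oligodendrocyte precursors and 18.6% of astrocytes, or 16.8%, 0.709%, 4.27% and 9.03% with cells thinned to 4000 UMIs, so *Six3* alone does not separate them from astrocytes. *Isl1* was found in 4.79%, 0.339%, 0% and 0.175%.

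Counting cells by at least 2 UMIs over 4 short sets of genes gave overlapping ranges, not types. The striatal range held 88 of the 564 cells, at 17.5%, 15.1%, 13.9% and 10.0% of each library (49, 8, 28 and 3 cells). The same range held 1.21%, 4.29%, 1.67% and 1.38% of neuroblasts, 3.33% to 10.0% of oligodendrocyte precursors and 2.64% to 8.46% of astrocytes, both of which are deeper. Thinning to 4000 UMIs kept 400 of the 564 cells, 23 of them in mutant replicate 2. The shares were then 18.3%, 6.82%, 13.6% and 4.35% against 0.770%, 2.19%, 0.308% and 1.72% of neuroblasts. The genotypes did not overlap before thinning, with a difference of -4.33 percentage points (exact permutation p = 0.3333, adjusted over the 4 ranges 0.667), and with a mitochondrial limit of 5% it was 0.936. The MGE range held 15.4%, 15.1%, 14.4% and 16.7%, in each library below its deeper astrocytes (20.5%, 25.3%, 16.5% and 25.2%). After thinning it held 9.14%, 15.9%, 8.84% and 8.70%, against 4.60%, 9.16%, 4.56% and 8.41% of astrocytes, so in mutant replicate 2 it was hardly above them. The CGE range held 67.5%, 47.2%, 72.6% and 46.7%, with 93.2%, 68.6%, 92.7% and 62.5% of its UMIs from *Adarb2*, and was below neuroblasts in each library (87.7%, 62.6%, 88.5% and 55.2%). After thinning it held 59.7%, 45.5%, 58.5% and 39.1% against 79.2%, 49.6%, 78.4% and 38.8% of neuroblasts, so in mutant replicate 2 the sets were level. The olfactory bulb range held 30.7%, 28.3%, 36.3% and 46.7%, below the deeper astrocytes (67.1% to 74.3%). After thinning it held 19.4%, 22.7%, 23.8% and 34.8%, against 26.7%, 29.1%, 29.5% and 29.2% of astrocytes and 57.6% to 64.7% of neuroblasts. The genotypes did not overlap before or after thinning, and the mutants were higher by 11.98 percentage points before it and 8.26 after it (exact permutation p = 0.3333 before thinning, the smallest this design allows, adjusted over the 4 ranges 0.667). The gap between the mutant libraries was of similar size. In no range were 57 cells.

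Clustering split the 564 cells into 11 groups of 19 to 84 cells, numbered here by size and described by their leading genes. The groups were made from the genes that describe them and carry no test. At a resolution of 0.5 there were 10 and at 1.2 there were 15, with adjusted Rand indices of 0.883 and 0.700 to the 11.

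Groups 3, 10 and 11 had the highest levels of *Foxp1*, *Rarb* and *Bcl11b*, in different combinations with *Six3* and *Isl1*. Levels of groups are pooled over libraries, and the groups differ in their share of cells from replicate 2, where long genes were lower. Within replicate 1 the same 3 groups led, with 1015, 851 and 3935 CPM of *Foxp1*, 302, 983 and 1296 of *Rarb* and 975, 1809 and 1390 of *Bcl11b* in groups 3, 10 and 11. Group 3 (75 cells) was led by *Six3*, *Six3os1* and the corepressor gene *Tle4*, with 745 CPM of *Six3*, 1034 of *Foxp1*, 1069 of *Bcl11b* and 402 of *Sp9*. Its cells made up 9.64%, 22.6%, 14.4% and 23.3% of the libraries, highest in both libraries of replicate 2. Group 10 (21 cells) was led by *Isl1* at 840 CPM, with 14209 CPM of *Robo1*, 925 of *Rarb*, 262 of *Zfp503* and 7.71 of *Sp9*, and its cells numbered 15, 2, 4 and 0 by library. Group 11 (19 cells, 9 and 10 of them from control and mutant replicate 1 and 0 from replicate 2) had 3935 CPM of *Foxp1*, 1296 of *Rarb* and 108 of *Drd2*. Group 11 was also deep, with a median of 11682 UMIs.

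The other groups carried other programmes. Group 4 (68 cells) was led by the forkhead gene *Foxp4* and the potassium channel gene *Kcnd2*, with 3597 CPM of *Foxp2* and 6023 of *Meis2*. Group 5 (60 cells) was led by *Reln* at 544 CPM and *Npy* at 518, with 523 of the interneuron factor *Maf*, 384 of the cannabinoid receptor gene *Cnr1*, 137 of the medial eminence factor *Lhx6* and 115 of *Meis2*, which no other group held below 586 CPM. Groups 1, 6 and 7 (84, 58 and 48 cells) held 482, 302 and 455 CPM of *Etv1*, group 6 with 500 of *Zic1* and 293 of *Calb2*, and group 7 was shallow at a median of 2901.5 UMIs. Group 9 (25 cells) held 222 CPM of *Nr2f2*.

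In 2 groups the data went against the label of a neuron in part. Group 8 (26 cells, median 14725.5 UMIs) was led by *Hes5* at 528 CPM, with 536 of *Egfr* and 138 of the progenitor homeobox gene *Gsx1*. It held 135 CPM of *Dcx*, 44.2 of *Sp9* and 0 of *Slc32a1*, but *Tubb3* was at 630 CPM and found in 92.3% of its cells. Group 2 (80 cells) was led by *Cd9*, the division gene *Ube2c* at 147 CPM and the cyclin gene *Ccnd2*, with 237 CPM of *Pcna* beside 566 of *Sp9* and 2174 of *Tubb3*. *Sp9* was also nearly absent from group 10 (above).

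**Figure D4:**
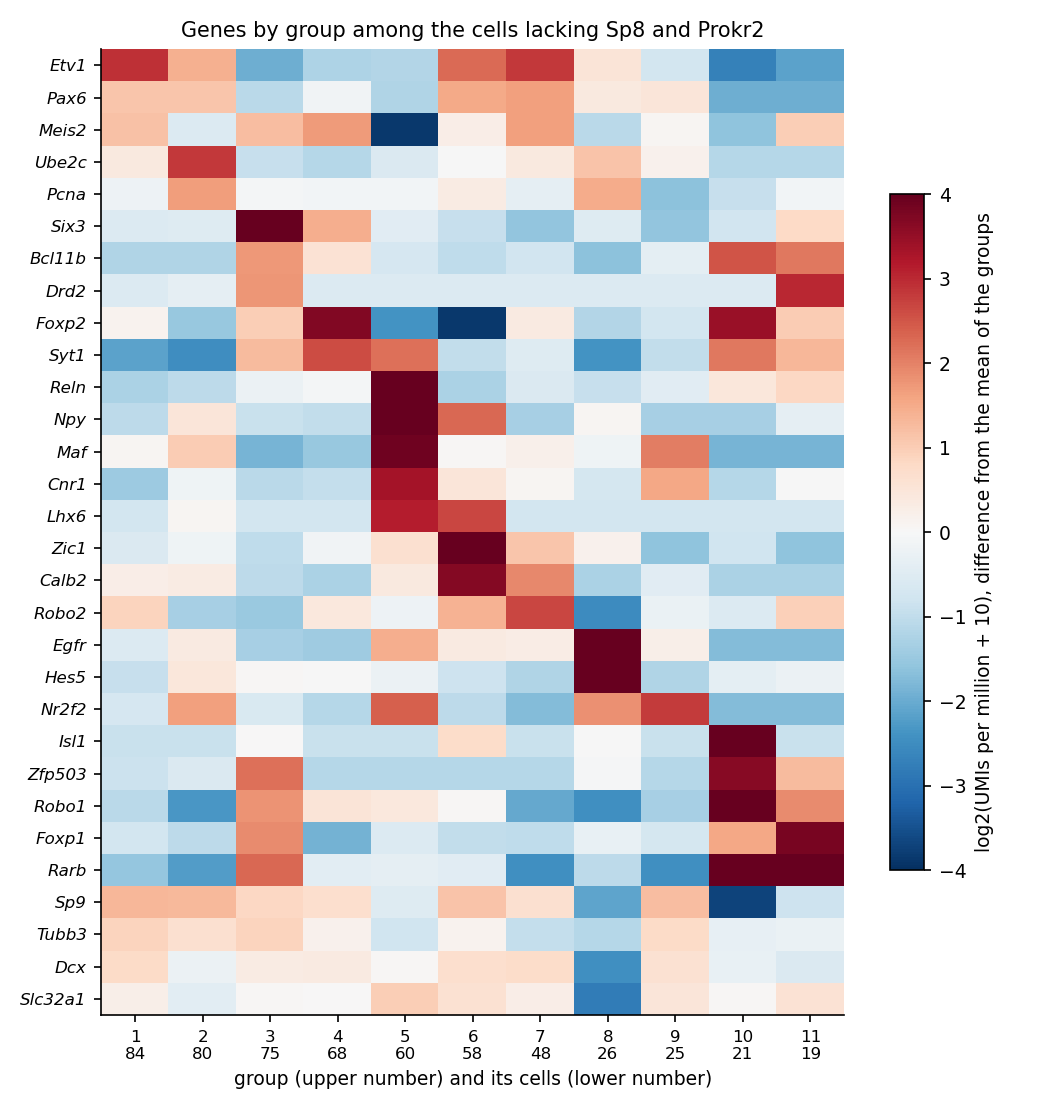
Genes (rows) in the 11 groups of cells lacking *Sp8* and *Prokr2* (columns, with cell numbers), as log2 of CPM (pooled over libraries) plus 10 minus the mean over groups, red where higher and blue where lower. *Six3* is highest in group 3, *Isl1* in group 10, *Foxp1* and *Rarb* in group 11, *Reln* and *Npy* in group 5, and *Hes5* and *Egfr* in group 8.

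Against dividing inhibitory progenitors (641 cells with at least 3 UMIs over *Mki67* and *Top2a*), 4546 of 9574 genes passed (47.5%), with 2398 (25%) higher and 2148 (22.4%) lower. All 9 striatal genes that passed the filter on low counts were higher, but a gene rare in the progenitors could pass it through the other set alone, so this count too is a description. *Rarb* was at 6.30, 1.199, 2.43 and 1.96 CPM in the progenitors (log2 difference 4.90, SE 0.199), and *Six3* at 10.3, 45.6, 11.7 and 49.0 CPM (2.90, SE 0.152). Of 15 synaptic genes 14 were higher and 0 lower. All 12 division genes were lower, which the selection on *Mki67* and *Top2a* favours, and 7 of 9 progenitor genes were lower. Without control replicate 1 the count was 2744 and without mutant replicate 1 it was 2881.

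Against excitatory neurons (420 cells), 2185 of 9732 genes passed (22.5%), with 1055 (10.8%) higher and 1130 (11.6%) lower. All 8 genes of the GABA identity list were higher (median 5.07), and all 6 excitatory genes tested outside the selecting genes were lower, as the selection on *Gad2*, the Dlx genes, *Neurod2* and *Neurod6* favours. Of 12 striatal genes tested 9 were higher, and *Pde1b*, a phosphodiesterase gene, was lower (-1.80, SE 0.290). A gene rare in excitatory neurons could pass the filter on low counts through the other set alone, so this count is a description. *Foxp2* was at 29.1, 0, 19.9 and 3.39 CPM in excitatory neurons (log2 difference 4.95, SE 0.195). Of the immature neuron list 7 of 14 were lower and 0 higher, and of 16 synaptic genes tested 2, *Syt1* and *Slc12a5*, were higher and 7 lower. Without mutant replicate 1 the count was 1137.

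The targeted gene *Chd8* encodes a chromatin remodeller of the CHD family. In the cells lacking *Sp8* and *Prokr2* it was at 85.6, 111, 83.8 and 152 CPM from 162, 37, 119 and 31 UMIs. The genotypes overlapped, with a difference of -0.03 on the log2 scale within replicate 1 and 0.43 within replicate 2. In the edgeR fit the difference was 0.23 (SE 0.436), and without mutant replicate 2 it was -0.186. The kit reads the 3′ end of transcripts and the loxP sites flank internal exons, so this level does not check the genotype.

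The test between genotypes called no gene in these cells and had little power to do so. Of 9176 genes tested 0 (0%) passed an adjusted p of 0.05 when the edgeR model held genotype and nothing else, 17 had an unadjusted p under 0.05, and DESeq2 called 0 with 12 under 0.05. Without control replicate 1 the median log2 difference over all genes was 0.075. That fit set 1 control of replicate 2 against mutants of both replicates. It therefore mixed genotype with replicate, and the lone control was assumed to vary like the mutants. In the fit of all libraries every list was at 0 calls. The median difference of the striatal list was 0.08 over 11 genes, of the olfactory bulb list 0.14 over 9, of the GABA identity list -0.14 over 8 and of the synaptic list -0.19 over 15, against -0.01 over all genes. This model leaves the gap between replicates in its spread, so a count of 0 does not show that levels were alike. With the replicate, which coincides with the software version, as a further term, 13 genes passed (0.142%), 7 higher and 6 lower in mutants. The smallest values were those of *Hba-a1* (edgeR adjusted p = 1.31e-10) and *Ebf1* (4.28e-06), both higher in mutants. In mutant replicate 1, 168 of 325 *Hba-a1* UMIs and 170 of 200 *Ebf1* UMIs came from 1 cell each. Among the lower genes were *Reln* (edgeR adjusted p = 1.41e-05) and *Isl1* (0.0242). In that model 0 genes passed without the 23 cells holding markers of other cell types. There 230 of 8718 genes tested had an unadjusted p under 0.05, a share below 0.05. The differences of *Reln* (-2.62, SE 0.300, adjusted p = 0.0731) and *Isl1* (-1.97, SE 0.355, adjusted p = 0.480) were close in size to those with all cells (-2.68 and -1.87).

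The study reports *Auts2*, *Nrxn3* and *Gphn* as differing between genotypes in inhibitory neurons, by a rank-sum test over single cells. It names *Gad1* as a marker of mature inhibitory neurons. The cells examined here leave out the neuroblasts, and the library is the replicate. The values below therefore neither repeat nor contradict the study's test. In these cells, differences for the named genes were small beside the spread between libraries. *Gad1* was at 292, 229, 313 and 157 CPM and *Nrxn3*, a presynaptic adhesion gene, at 11717, 1057, 9804 and 756 CPM. *Gphn*, the scaffold of inhibitory synapses, was at 636, 42.2, 617 and 34.4 CPM and *Auts2*, an autism-associated gene, at 3076, 539, 2790 and 569 CPM. None passed, and for the last 3 the gap between replicates exceeded that between genotypes. With the replicate in the model the log2 differences were -0.12 (SE 0.222) for *Gad1* and -0.36 (SE 0.241) for *Nrxn3*. They were -0.09 (SE 0.243) for *Gphn* and -0.05 (SE 0.220) for *Auts2*, and none passed there.

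Differences were also taken within each replicate. Of 3825 genes at 50 CPM or more, 53.3% had the same sign in both replicates, 29.4% were lower in mutants in both, 16% had genotypes that did not overlap, and 5 genes (0.131%) differed by at least 1 log2 unit the same way in both. These were *Reln*, *Hba-a1*, *Grm7*, *Olig1* and *Igfbp5*, which were chosen by this size and are a description. *Reln* differed by -2.47 and -2.54 within replicates, with 205, 27, 22 and 2 UMIs (-2.63, SE 0.458 in the edgeR model with genotype alone, where it was not called). In the controls 69 of 205 and 23 of 27 *Reln* UMIs came from 1 cell each, and cells with *Reln* numbered 21, 3, 13 and 1. The growth factor binding gene *Igfbp5* had 90, 51, 30 and 3 UMIs (-1.01 and -3.01 within replicates). For the glutamate receptor gene *Grm7* the replicate 2 libraries held 2 and 0 UMIs.

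The higher genes among these, *Hba-a1* and *Olig1*, are on the blood and oligodendrocyte lists. The haemoglobin gene *Hba-a1* had 325 UMIs in mutant replicate 1 from 6 cells, 168 of them in 1 cell, and at most 3 in the other libraries, and the summed level of the blood list was 5.28, 12.04, 555 and 19.6 CPM. For *Olig1*, an oligodendrocyte lineage factor, 26 of the 31 UMIs of mutant replicate 2 came from 1 cell. The oligodendrocyte list summed to 115 and 81.3 CPM in controls and 302 and 304 CPM in mutants. In neuroblasts it summed to 52.7 and 75.9 CPM in controls and 131 and 145 CPM in mutants. Both mutant libraries were also higher in dividing progenitors and in excitatory neurons. In oligodendrocyte precursors and astrocytes the genotypes overlapped. The microglial list summed to 134, 6.02, 44.4 and 4.91 CPM and the vascular list to 4.76, 15.1, 25.4 and 39.3 CPM. Without the 23 cells holding such markers 0 genes passed, with genotype alone or with the replicate.

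Among the striatal genes, *Isl1* was lower in mutants in both replicates (-1.54 and -2.20 within replicates, -2.03 with SE 0.464 in the edgeR model), from the 84 and 21 against 17 and 2 UMIs given above, with 11 of the 21 in 1 cell. *Six3* differed by 1.07 within replicate 1 and -0.25 within replicate 2, *Rarb* by -0.12 and -1.16, *Foxp1* by 0.05 and 0.93, and *Etv1* by 0.27 and 1.02. None passed with genotype alone in the model. Fewer cells of a kind and less RNA per cell cannot be told apart in these sums. Pooled over libraries, *Isl1* was at 840 CPM in group 10 and at most 21.0 CPM in any other group. Cells of group 10 made up 5.36%, 3.77%, 1.99% and 0% of the libraries (15, 2, 4 and 0 cells). The groups were made from the genes that describe them, so this is a description and was not tested.

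**Figure D5:**
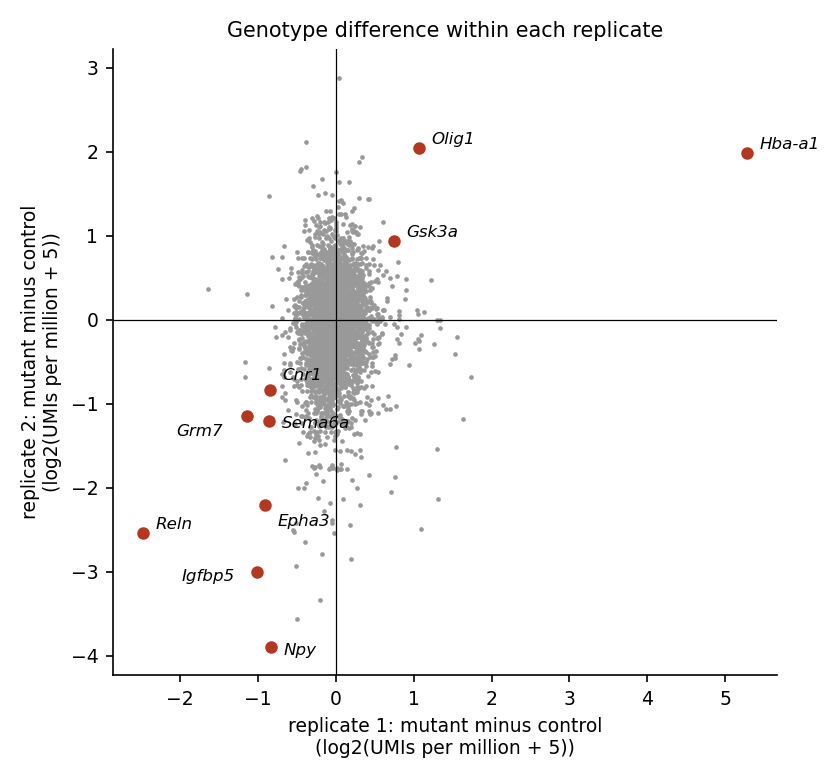
Difference between mutant and control within replicate 1 (horizontal) and replicate 2 (vertical) for 3825 genes at 50 CPM or more, as log2 of CPM plus 5. Red points are the 10 genes with the largest smaller difference of the same sign, among them *Reln* at -2.47 and -2.54, and most genes lie within a narrow band near 0 in replicate 1.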

How the data were processed

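tdTomato-positive telencephalic cells of 4 libraries, 2 per genotype as given by the labels, were profiled with 10x Genomics 3′ chemistry. The authors mapped reads to mm10 with Cell Ranger (version 3.0 in the submitters' processing notes, 7.0.0 or 5.0.1 in the file headers) and deposited raw UMI counts per gene and barcode, without normalization. Cells, gene lists and tests were chosen with earlier results of these data known. No doublet caller was run; the upper UMI limit and the marker exclusions stood in for one. UMIs were summed per library and cell set, filtered with filterByExpr and TMM-scaled, and edgeR 4.0.16 (R 4.3.3) gave quasi-likelihood tests with Benjamini-Hochberg adjustment, with genotype alone or with library as a block between cell sets. Genes of the selection rule were left out of calls. Levels are CPM within a set, within-replicate differences use log2(CPM + 5), and a count of 0 allows up to 3 UMIs. Shares were tested by exact two-sided permutation over libraries.

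The text names the listed markers, *Chd8* and the genes the study names for inhibitory neurons, sex-linked genes, the 10 genes with the largest concordant within-replicate differences at 50 CPM or more, and up to 15 genes per direction against neuroblasts (adjusted p under 0.05, the same sign in 4 libraries, 50 CPM or more). Groups came from Leiden clustering (scanpy 1.11.5; 1500 variable genes, 15 components, 15 neighbours, resolution 0.8), and their leading genes were named after their values were seen. Gene positions and spans are from GENCODE vM21 and promoters from RefSeq. Alternatives were DESeq2 1.42.0, no TMM, no filter, at least 10 counts in every library, other cell limits, thinning to 4000 UMIs, the replicate or library block, other marker cells left out, each replicate number alone and each library left out. The genotype and neuroblast fits in edgeR were tested on simulated data: the model with genotype alone called none of the changed genes and the model with the replicate called most of those with the larger change, a minority of those with the smaller change and a few unchanged genes. Results for some listed genes are not reported here.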

Additional observations from a re-analysis of the deposited data

How the results depend on the processing

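With 30 cells and 203779 UMIs, mutant replicate 2 limits what can be seen in low genes. The share of inhibitory cells lacking *Sp8* and *Prokr2* kept its sign in all 8 alternatives (-8.82 to -4.12 percentage points), and the olfactory bulb range in all 9 (6.01 to 17.2). The share of all cells ranged from -2.67 to 0.450 with a library left out. For the ranges, the difference turned to 0.936 (striatal) and -0.0274 (MGE) with a mitochondrial limit of 5%, to -3.75 for both MGE and CGE after thinning to 4000 UMIs, to -1.06 (CGE) with at least 5 UMIs of the Dlx genes and *Gad2* and to -1.97 (MGE) with at least 3 UMIs in the range. Leaving out a library gave -0.798 to 1.44 (MGE) and -10.7 to 15.3 (CGE). Values with a library left out mix genotype with replicate, since the replicates are then unequal between genotypes. The cause of these changes was not tested.

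Genotype calls numbered 0 in 11 alternatives, 13 without a filter on low counts and 0 to 60 with a library left out. With a replicate block 13 genes passed (7 higher and 6 lower in mutants), among them *Reln*, *Isl1*, *Ebf1* and *Hba-a1*. In the same blocked fit without the 23 cells holding other markers 0 passed, and 230 of 8718 genes tested had an unadjusted p under 0.05. Deviations of same-numbered libraries from their genotype means correlated at r = 0.713 over 9182 genes and 2 pairs. With 2 libraries per genotype these pairs mirror each other. Nothing in the labels says what the numbers share. The software in the file headers and the sex-linked genes part the libraries by the same numbers, and what else they share is not known.

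Without the library block, noted as no replicate block, the sets differed at 52 (neuroblasts), 1709 (dividing) and 573 genes (excitatory). DESeq2 called 795, 2887 and 1205. Against neuroblasts the count was 886 after thinning, 1165 in the deeper cells and 404 in replicate 2 alone. With a library left out it was 846 to 1897, 2744 to 4929 and 1137 to 2091.

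Among named genes against neuroblasts, 975 values kept direction and call, 137 kept direction without the call, and *Slit1* (0.223) and *Slit2* (-0.00558) turned in replicate 2 alone. Between genotypes, leaving out a library gave -0.186 to 0.609 for *Chd8*, -5.61 to 2.74 for *Grm7*, -5.17 to 1.22 for *Epha3* and -1.71 to 1.71 for *Auts2*. It gave -3.13 to 2.40 for *Nrxn3*, -3.28 to 2.97 for *Gphn* and -0.750 to 0.288 for *Gad1*. These values too mix genotype with replicate. With a mitochondrial limit of 5% *Gphn* was 0.000145.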

Other observations

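Among the cells lacking *Sp8* and *Prokr2*, some genes not described between genotypes above had differences of the same sign within both replicates. *Epha3*, an ephrin receptor gene, differed by -0.908 and -2.21 on the log2 scale, *Sema6a*, a semaphorin gene, by -0.849 and -1.21, and *Cnr1*, the cannabinoid receptor gene, by -0.838 and -0.835. *Gsk3a*, a kinase gene, differed by 0.747 and 0.932. None passed the edgeR test with genotype alone, and *Epha3* rested on 6 and 0 UMIs in replicate 2.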
